A study of Mus musculus with 2 samples.

Results

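The genes described are 10 genes of blood vessel endothelium in the adult mouse heart: Cdh5, Pecam1, Tie1, Tek, Emcn, Cldn5, Gpihbp1, Fabp4, Meox2 and Tcf15. They were chosen by name from what is known of them and not by a measured value, though earlier results of these data were known. All 10 were found among the 43346 gene identifiers in the deposited gene tables, with 29 of the 103639 annotated transcripts. Poly(A)-selected RNA longer than 200 nucleotides was sequenced from whole heart of C57BL/6J mice, an inbred laboratory strain, aged 8 weeks, as stranded paired reads of 76 nucleotides. The libraries form 1 untreated group of 2, named biological replicates 1 and 2, so the design holds no contrast of conditions. The labels describe each library as a pool of males and females, with separate biosamples under 1 donor record.

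Endothelial cells line every vessel and are held together by adherens junctions built on VE-cadherin, the product of Cdh5, and by tight junctions that contain claudin 5. In the heart they form a dense bed of continuous capillaries that passes fatty acids to the muscle: lipoprotein lipase, made by the muscle cells, is carried to the capillary lumen by the anchor protein of Gpihbp1, and fatty acids are bound inside the endothelial cell by the lipid chaperone of Fabp4. Meox2 and Tcf15 encode transcription factors that are known as a pair active in heart endothelium, where they favour fatty acid transport. The receptors Tie1 and Tek act in the angiopoietin pathway, which keeps mature vessels quiet.

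The tables held 57464573 and 62912053 expected counts in replicates 1 and 2, which is the estimated number of fragments per gene. Levels are given in TPM, a scale corrected for transcript length that sums to the same total in each library. Genes of the mitochondrial genome took 46.5% and 30.6% of TPM, so the TPM of every nuclear gene is affected by that share. Against the label of a mixed pool, 13725 counts fell on Xist in replicate 1 but 13 in replicate 2, and the 4 Y-linked genes Ddx3y, Eif2s3y, Kdm5d and Uty together held 0 and 2916. Replicate 2 also held transcripts of lung, with 9 lung markers summing to 0.89 and 2538 TPM in the order of the replicates. Red cell markers summed to 7592 and 94910 TPM. Any difference between the libraries therefore cannot be told apart from these differences in sex and tissue. To measure such differences, each gene with at least 20 counts over both libraries was compared by an exact two-sided binomial test given library sizes scaled by TMM, a trimmed mean of ratios. A gene was called when the Benjamini-Hochberg adjusted p was under 0.05 and the fold at least 2, and 11.8% of the 16145 genes tested were called, 8.21% as higher and 3.57% as lower in replicate 2. The test compares these 2 libraries and covers counting error only. In a bulk sample, fewer endothelial cells and less RNA per endothelial cell cannot be told apart either.

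Each of the 10 genes was detected at 1 TPM or more in both libraries, and their mean levels spanned 45.5-fold. Together they summed to 471.75 TPM in replicate 1 and 565.13 TPM in replicate 2, of which Fabp4 alone held 43.4% and 41.3%. In falling order of mean TPM they were Fabp4, Gpihbp1, Cdh5, Pecam1, Tie1, Emcn, Cldn5, Tcf15, Tek and Meox2. In 6 of the 9 steps between neighbours in this order, the lower library of one gene lay above the higher library of the next. The neighbours that overlapped were Cdh5 and Pecam1, Cldn5 and Tcf15, and Tcf15 and Tek. With 2 libraries an exact two-sided sign test cannot give a p below 0.5, so the order is a description. The lipid transport genes Fabp4 and Gpihbp1 thus stood above the junction and adhesion genes, and the transcription factors and Tek stood lowest. Among 21461 nuclear protein-coding genes the ranks ran from 249 for Fabp4 to 6935 for Meox2, and 9 of the 10 lay above the median of 7.73 TPM of the 10664 genes at 1 TPM or more in both libraries.

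**Figure D1:**
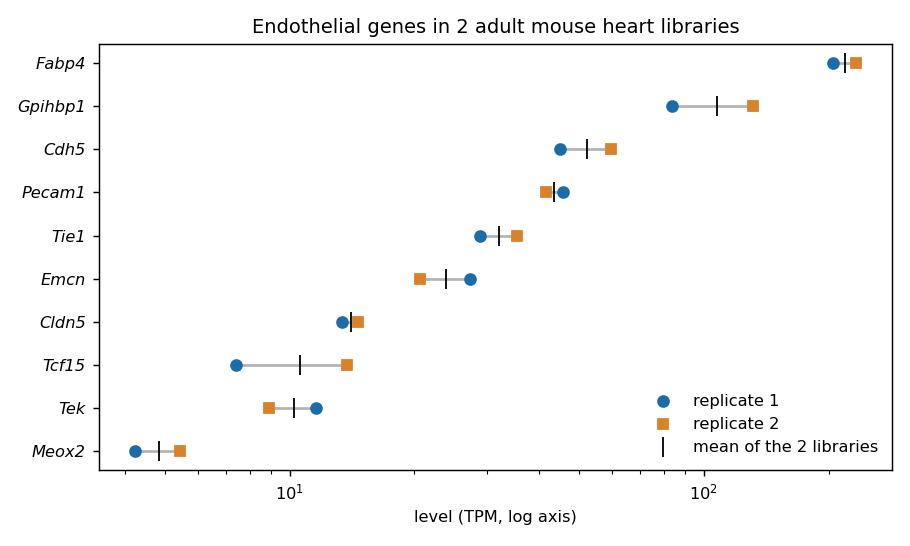
Level of each of the 10 endothelial genes in TPM (log axis) in replicate 1 (circle) and replicate 2 (square), with the mean as a tick, ordered by mean TPM. Fabp4, at 204.91 and 233.48 TPM, lies above all other genes, and the range of Tcf15 overlaps those of Cldn5 and Tek.

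Of the lipid transport genes, Fabp4 (ENSMUSG00000062515.3, GRCm38 chr3:10204088-10208576, minus strand) had 204.91 and 233.48 TPM in replicates 1 and 2, a mean of 219 ± 20.2 (SD, n = 2) resting on 10618 and 13336 counts. Both libraries were close. The heart muscle form Fabp3, which buffers fatty acids in the cardiomyocyte, stood 15.2-fold and 15.1-fold above Fabp4 per length in the same order, a mean log2 TPM ratio of Fabp4 over Fabp3 of -3.92 ± 0.01 (SD, n = 2). Fabp5, the other fatty acid binding protein known from endothelium, was 11.5-fold and 17.8-fold below Fabp4 in the replicates. The remaining 6 family members, among them the liver form Fabp1 and the gut form Fabp2, were under 1 TPM in both libraries. So 3 of 9 fatty acid binding protein genes were clearly expressed, and their order Fabp3, Fabp4, Fabp5 was the same in each library.

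Gpihbp1 (ENSMUSG00000022579.6, chr15:75596628-75599481, plus strand), the capillary anchor of lipoprotein lipase, had 83.8 TPM in replicate 1 and 131.75 TPM in replicate 2. Its mean of 108 ± 33.9 TPM (SD, n = 2) rested on 3429 and 5777 counts. The second library was the higher, and Gpihbp1 had one of the wider spreads among the 10 genes. Its partner Lpl was at 846.15 and 689.07 TPM, so that Lpl stood 10.1-fold above its anchor in replicate 1 and 5.23-fold above it in replicate 2. Cd36, the fatty acid translocase found in both endothelium and muscle, was at 194.74 and 128.67 TPM. It exceeded Gpihbp1 in replicate 1 only, and lay below Fabp4 in both.

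Gpihbp1 belongs to the Ly6 family of small surface proteins. Within it, Ly6c1 and Ly6e had higher mean TPM (272 ± 61.7 and 209 ± 75.7, SD, n = 2). Ly6a, the stem cell antigen Sca-1, was close below Gpihbp1 at 94.7 ± 18.8. Ly6c1 and Ly6a have close copies among the Ly6 genes, so the division of fragments among them is uncertain. Of the 10 Ly6 genes tested, Ly6c2, Ly6d and Ly6k were called, all higher in replicate 2 and all under 10 TPM. Of the other genes of lipid transport, Cav1, which builds caveolae, was at 209.92 and 253.93 TPM, and Acsl1, the acyl-CoA synthetase of the heart, at 201.79 and 174.45 TPM. All 15 genes of that list were tested between the libraries and 0 were called higher or lower, beside 11.8% of all genes tested.

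**Figure D2:**
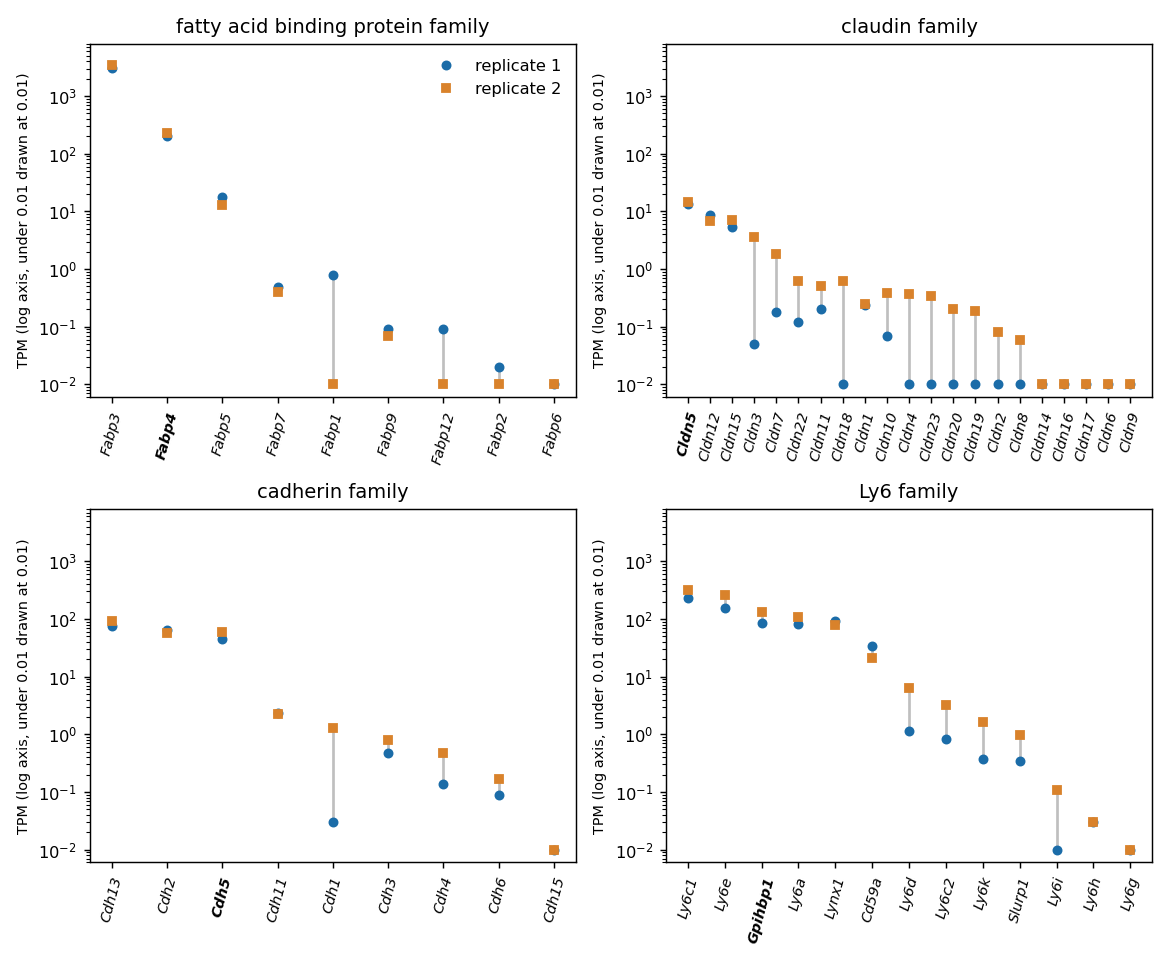
TPM (log axis) of the genes related to Fabp4, Cldn5, Cdh5 and Gpihbp1, in replicate 1 (circles) and replicate 2 (squares), with the described gene in bold and values under 0.01 TPM drawn at 0.01. Cldn5 is the claudin of highest mean TPM, and 9 lower claudins lie far apart between the libraries, with replicate 2 the higher.

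Among the junction genes, Cdh5 (ENSMUSG00000031871.8, chr8:104101625-104144511, plus strand) was at 44.91 and 59.77 TPM in replicates 1 and 2, on 10597 and 14883 counts. Its mean was 52.3 ± 10.5 TPM (SD, n = 2). Cdh2, the N-cadherin that joins cardiomyocytes end to end, was at 63.81 and 57.87 TPM, above Cdh5 in replicate 1 and below it in replicate 2. The pair therefore did not separate, with a log2 ratio of Cdh5 over Cdh2 of -0.23 ± 0.39 (SD, n = 2). Cdh13, T-cadherin, had the highest mean of the 9 cadherins examined, 84.0 ± 11.5 TPM. Of the 8 cadherins tested, the epithelial Cdh1 (5 and 330 counts) and Cdh4 (53 and 192 counts) were called, both higher in replicate 2, and with the GC correction also Cdh6 (13 and 28 counts). Of the catenins that bind cadherin tails, Jup (plakoglobin) was at 110.67 and 167.44 TPM, Ctnna1 at 64.18 and 67.59, and Ctnnb1 (beta-catenin) at 40.49 and 63.2. These catenins also serve the junctions of heart muscle.

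Cldn5 (ENSMUSG00000041378.1, chr16:18776847-18778262, plus strand), a gene of 1 exon, was at 13.38 and 14.65 TPM, a mean of 14.0 ± 0.898 (SD, n = 2) on 1010 and 1172 counts. The libraries were nearly level, and Cldn5 had the highest mean TPM of the 21 claudin genes. Next came Cldn12 at 8.84 and 6.73 TPM and Cldn15 at 5.27 and 7.03 TPM. Ocln, occludin, the other membrane protein of tight junctions, was far lower at 0.29 and 0.2 TPM, on only 25 and 35 counts. This puts Cldn5 46.1-fold and 73.3-fold above it, log2 ratios of 5.53 and 6.19. By the deposited posterior mean TPM the log2 ratios were 5.06 and 5.51, and by expected counts 5.34 and 5.07. The size of the gap therefore depended on the unit. Of the 13 claudins with at least 20 counts, 9 were called higher in replicate 2, namely Cldn3, Cldn4, Cldn7, Cldn10, Cldn11, Cldn18, Cldn19, Cldn22 and Cldn23. Over all genes tested, 8.21% were called higher in that library. The highest of the 9 was Cldn3, a claudin of epithelia, with 3 counts in replicate 1 and 252 in replicate 2, and Cldn18, whose splice form marks lung alveoli, had 0 and 60. Lung markers were higher in the same library, and their part in these calls was not tested.

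Pecam1 (ENSMUSG00000020717.15, chr11:106654217-106750628, minus strand) encodes an adhesion receptor of endothelium, platelets and leukocytes. It was at 45.56 and 41.53 TPM, a mean of 43.5 ± 2.85 (SD, n = 2) on 8422 and 8150 counts. Beside Cdh5 it was level in replicate 1 and 1.44-fold lower in replicate 2. Of its 8 annotated transcripts 4 held nearly all the signal, and they differ in which coding exons they include. Pecam1-203 held 36.5% and 41.8% of the gene's TPM, Pecam1-202 30.5% and 21.8%, Pecam1-207 23.0% and 28.0%, and Pecam1-204 7.46% and 7.20%. The short exons encode part of the tail inside the cell, which carries the inhibitory tyrosine motifs of the protein. They are shown because the leading transcripts are told apart by them. Capitals mark the exon and lower case the 15 bases on each side in the spliced RNA, written as DNA on the coding strand from the GENCODE M21 transcripts.
Pecam1 exon of 57 bases, included: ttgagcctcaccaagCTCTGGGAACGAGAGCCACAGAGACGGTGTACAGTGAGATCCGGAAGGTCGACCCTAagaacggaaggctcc
Pecam1 exon of 57 bases, skipped: ttgagcctcaccaagagaacggaaggctcc
Pecam1 exon of 23 bases, included: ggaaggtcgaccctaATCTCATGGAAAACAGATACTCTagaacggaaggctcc
Pecam1 exon of 23 bases, skipped: ggaaggtcgaccctaagaacggaaggctcc

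The exon of 57 bases (chr11:106671742-106671798) was present in 62.7% and 57.7% of the TPM of the coding transcripts that span it. Its skipping joins the same neighbours without it and keeps the reading frame, since its length is a multiple of 3. The exon of 23 bases (chr11:106662002-106662024) was present in 31.45% and 35.62%. Its length is not a multiple of 3, so transcripts with and without it end in different reading frames. Another alternative exon, of 303 bases in the part of the transcript that encodes the outer portion of the protein (chr11:106697052-106697354), was present in 76.5% and 71.7%. All 3 shares moved by 5 percentage points or less between the libraries, and each exon kept its side of an even split. These shares are estimates from fragments divided among similar transcripts, and the deposited posterior SD of the 3 leading transcripts ran from 105 to 135 counts, against 1834.5 to 3467.2 counts in the transcripts.

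Emcn (ENSMUSG00000054690.13, chr3:137341067-137432185, plus strand), endomucin, a heavily glycosylated surface sialomucin of capillaries and veins, was at 27.22 and 20.57 TPM. Its mean was 23.9 ± 4.70 TPM (SD, n = 2) on 2918 and 2418 counts. Replicate 1 was the higher. Cd34, another sialomucin of endothelium that is also found on fibroblasts, was at 59.92 and 45.85 TPM, 2.20-fold and 2.23-fold above Emcn. The ratio of Emcn over Cd34 had the second smallest spread of the 14 pairs examined, -1.15 ± 0.01 on the log2 scale (SD, n = 2). The 2 main coding transcripts of Emcn differ by the 39-base exon below, which lies in the coding sequence and is a multiple of 3.
Emcn exon of 39 bases, included: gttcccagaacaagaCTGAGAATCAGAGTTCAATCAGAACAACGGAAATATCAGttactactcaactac
Emcn exon of 39 bases, skipped: gttcccagaacaagattactactcaactac

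That exon (chr3:137403984-137404022) was present in 43.8% and 48.3% of the coding TPM. By expected counts the shares were 61.7% and 65.8%. The transcript with the exon, Emcn-202, is 2588 bases long and the one without, Emcn-201, 1357 bases, mostly through noncoding sequence, so the leading form depends on whether length is taken into account. Emcn-201 led by TPM in both libraries with 55.3% and 50.6%, and Emcn-202 led by counts with 59.8% and 63.2%.

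The receptor genes of the angiopoietin pathway both lie on chromosome 4. Tie1 (ENSMUSG00000033191.10, chr4:118471191-118490061, minus strand), an orphan receptor, was at 28.76 and 35.32 TPM, a mean of 32.0 ± 4.64 (SD, n = 2) on 6689 and 8500 counts. Tek (ENSMUSG00000006386.11, chr4:94739289-94874976, plus strand), which encodes the angiopoietin receptor Tie2, was at 11.59 and 8.9 TPM, a mean of 10.2 ± 1.90 on 2872 and 2454 counts. Tie1 was therefore the higher in both libraries, 2.48-fold in replicate 1 and 3.97-fold in replicate 2. The log2 ratio of Tie1 over Tek was 1.65 ± 0.48 (SD, n = 2).

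Of the ligands, Angpt1, the agonist made by cells around the vessel, was at 5.22 and 3.34 TPM. Angpt2, the context-dependent ligand stored in endothelial cells, was at 1.34 and 1.22 TPM, which puts Angpt1 3.90-fold and 2.74-fold above it. Angpt4 was under 1 TPM in both. The ligands thus lay below their receptor in each library. Ptprb, the phosphatase that acts on Tie2 and VE-cadherin, was at 8.33 and 7.01 TPM, near Tek itself. Of the 7 other genes of this pathway, all were tested between the libraries and 0 were called, beside 11.8% of all genes tested.

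Tek has 3 coding transcripts that differ by an exon and by the choice of splice donor at another, both shown because they decide which transcript leads. Capitals mark the exon in the first sequence and the 3 added bases in the last.
Tek exon of 153 bases, included: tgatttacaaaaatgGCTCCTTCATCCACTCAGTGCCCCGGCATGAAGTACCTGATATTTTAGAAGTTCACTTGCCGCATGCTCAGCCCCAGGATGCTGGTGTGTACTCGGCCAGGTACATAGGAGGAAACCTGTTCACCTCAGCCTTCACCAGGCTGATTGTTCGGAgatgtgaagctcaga
Tek exon of 153 bases, skipped: tgatttacaaaaatggatgtgaagctcaga
Tek longer donor: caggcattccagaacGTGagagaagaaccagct

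The exon of 153 bases (chr4:94799127-94799279), a multiple of 3 in the part that encodes the outer portion of the receptor, was present in 58.5% of the coding TPM in replicate 1 and 49.7% in replicate 2. Tek-201, which includes it, held 49.2% and 43.3% of the gene's TPM, and Tek-202, which skips it, 39.6% and 50.3%. The leading transcript thus differed between the libraries. The longer donor, which adds 3 bases at the end of an exon that is number 13 in Tek-202, was used in 48.4% and 56.7%. The posterior SD of Tek-201 was 90.3 and 84.5 counts and that of Tek-202 92.9 and 86.5, while the counts were 1412.5 and 1006.7 for the first and 1241.8 and 1278.9 for the second. Tek-203, which has both the exon and the longer donor, had a posterior SD of 134 counts on 212 in replicate 1 and 127 on 168 in replicate 2, so its share of 6.56% and 6.41% was poorly fixed.

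The homeobox gene Meox2 (ENSMUSG00000036144.6, chr12:37108540-37179534, plus strand) was at 4.22 and 5.42 TPM, a mean of 4.82 ± 0.849 (SD, n = 2) on 568 and 771 counts. It was the lowest of the 10 genes in each library. Its relative Meox1 was at 5.29 and 3.84 TPM, above Meox2 in replicate 1 and below it in replicate 2. Tcf15 (ENSMUSG00000068079.5, chr2:152143561-152149097, plus strand), which encodes a basic helix-loop-helix factor, was at 7.4 and 13.74 TPM on 358 and 707 counts, a mean of 10.6 ± 4.48 TPM (SD, n = 2). Replicate 2 was the higher by 0.89 on the log2 TPM scale, the widest gap of the 10 genes. Tcf15 exceeded Meox2 1.75-fold and 2.54-fold.

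Of the general partners of Tcf15, Tcf4 was at 29.26 and 46.02 TPM and Tcf12 at 21.91 and 19.96, above Tcf15 in both libraries. Tcf3, at 7.06 and 13.31 TPM, was just below it in both. Tcf21, a related factor of fibroblasts, was at 10.07 and 17.08 TPM. Like Tcf15 it was the higher in replicate 2, and it stood 1.36-fold and 1.24-fold above Tcf15 within the libraries. None of the 6 genes of this list was called between the libraries, beside 11.8% of all genes tested.

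Of the 10 genes, Cdh5, Cldn5, Meox2 and Tcf15 have 1 annotated transcript each. Among the other 6, the same transcript led in both libraries in 5, all but Tek. Over 3530 genes with a mean of at least 10 TPM and 2 or more expressed transcripts, the leading transcript differed in 13.5%. Fabp4-201 held 95.8% and 94.9% of its gene's TPM. The transcript Fabp4-202, annotated as retaining introns, took 4.16% and 5.10% of TPM and, being longer, 20.2% and 23.7% of counts. Gpihbp1-201 held 70.4% and 65.4%, and 2 transcripts annotated as retaining introns together held 22.2% and 27.9%. Tie1-201 held 75.8% and 74.3%, beside Tie1-202, annotated as not coding, at 14.0% and 19.5%. The share of annotated noncoding transcripts was higher in replicate 2 for Fabp4, Gpihbp1, Tie1 and Emcn, and lower for Pecam1 and Tek. In Tek it rested on Tek-204 alone, with 5.29 counts in replicate 1 and 0 in replicate 2. In Pecam1 the fall rested on Pecam1-206, with 16.05 counts in replicate 1 and 0 in replicate 2. Its other such transcript, Pecam1-208, held 0.97% and 1.11% of TPM.

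**Figure D3:**
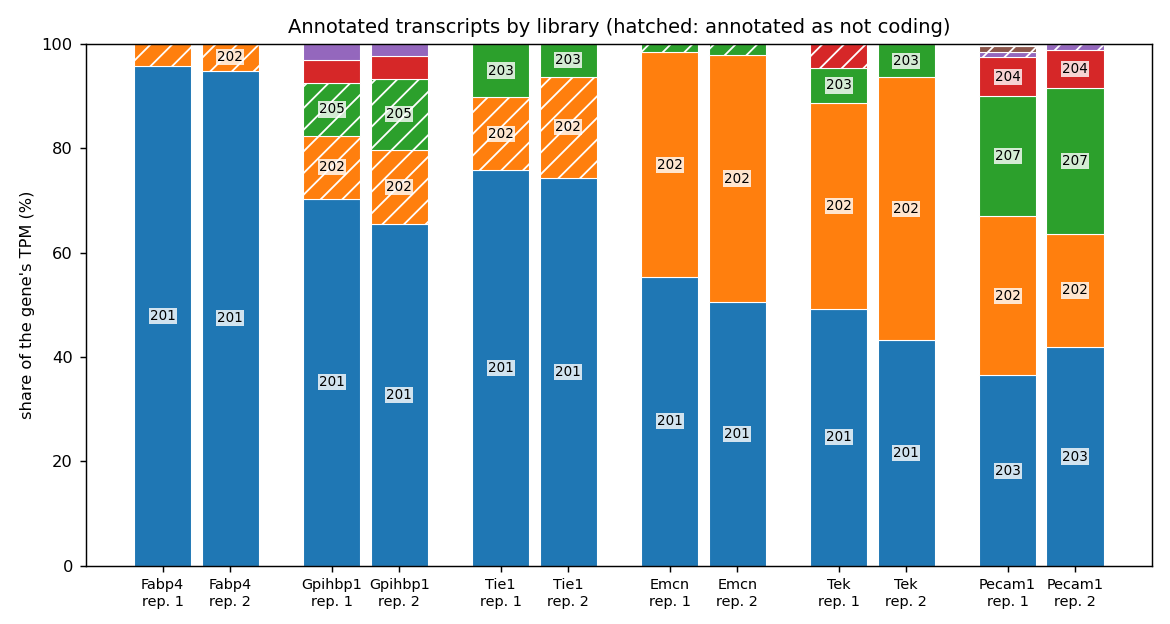
Share of each gene's TPM (%) held by its annotated transcripts, 1 bar for each library, for the 6 genes with more than 1 transcript; numbers are the ends of transcript names and hatching marks transcripts annotated as not coding. Tek-201 is the largest segment of Tek in replicate 1 (49.2%) and Tek-202 in replicate 2 (50.3%), while the other 5 genes keep the same largest segment.

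Between the libraries 0 of the 10 genes were called, where 11.8% of all genes tested were. Without the fold limit 9 of the 10 had an adjusted p under 0.05 by the exact binomial test, where 67.8% of all genes did. Of those 9, 6 were higher in replicate 2 and 3 were lower, beside 32.9% and 34.9% of all genes tested. The median size of the log2 ratio was 0.27 over the 10 genes and 0.39 over all genes tested.

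Tcf15 had the largest ratio, 0.73 on the log2 scale in favour of replicate 2 (95% counting interval 0.54 to 0.91, exact binomial test, adjusted p = 1.2e-14), a 1.65-fold difference in scaled counts. Emcn had the largest ratio in the other direction, -0.53 (-0.61 to -0.45, exact binomial test, adjusted p = 1.9e-39). Gpihbp1, at 0.50 (0.44 to 0.56), and Tek, at -0.48 (-0.56 to -0.40), followed. The receptors Tie1 and Tek thus lay on different sides of 0, since Tie1 was at 0.09 (0.04 to 0.14). Pecam1 was at -0.30 and Cdh5 at 0.23, so these markers of endothelium also differed in sign. Meox2 was at 0.18 and Fabp4 at 0.07. For Cldn5 the ratio was -0.04 (-0.16 to 0.08), with an adjusted p of 0.58 by the exact binomial test. With edgeR's exact test and its common dispersion, estimated from the difference between the same libraries, every one of the 10 genes had an adjusted p of 1.

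The ratio between these libraries moved with the GC content of the transcripts. Over 15930 genes Pearson's r was 0.40 and Spearman's rho 0.57, as a description across genes that share both libraries, and the median log2 ratio ran from -0.58 in genes under 42% GC to 0.50 in genes over 58%. Among the 10 genes GC content ran from 41.5% for Fabp4 to 65.8% for Tcf15. Emcn (43.6%), Tek (47.9%) and Pecam1 (49.8%) were lower in replicate 2, and Cdh5 (54.1%), Gpihbp1 (55.8%), Tie1 (57.8%) and Tcf15 (65.8%) were higher. Fabp4 and Meox2 (46.2%), of low GC content, and Cldn5 (60.5%), of high GC content, did not follow this division.

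When each ratio was set against the trend at its own GC content, the order of the genes changed. Tcf15 moved from 0.73 to -0.14, Tie1 from 0.09 to -0.35 and Cldn5 from -0.04 to -0.62, while Fabp4 moved from 0.07 to 0.54 and Meox2 from 0.18 to 0.44. Gpihbp1 remained above 0 at 0.17, Cdh5 came to 0.02, and Emcn, Tek and Pecam1 remained below 0 at -0.14, -0.31 and -0.24. After this correction 0 of the 10 genes were called, where 8.94% of all genes tested were, and 8 had an adjusted p under 0.05 by the exact binomial test with no fold limit, where 56.6% of all genes did. Of those 8, 3 were higher and 5 lower in replicate 2. Tie1 and Tcf15 thus changed side with the correction, but Tcf15 was not among those 8, with an adjusted p of 0.22 by that test. Cdh5, with an adjusted p of 0.31 by the same test, was the other gene outside them.

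**Figure D4:**
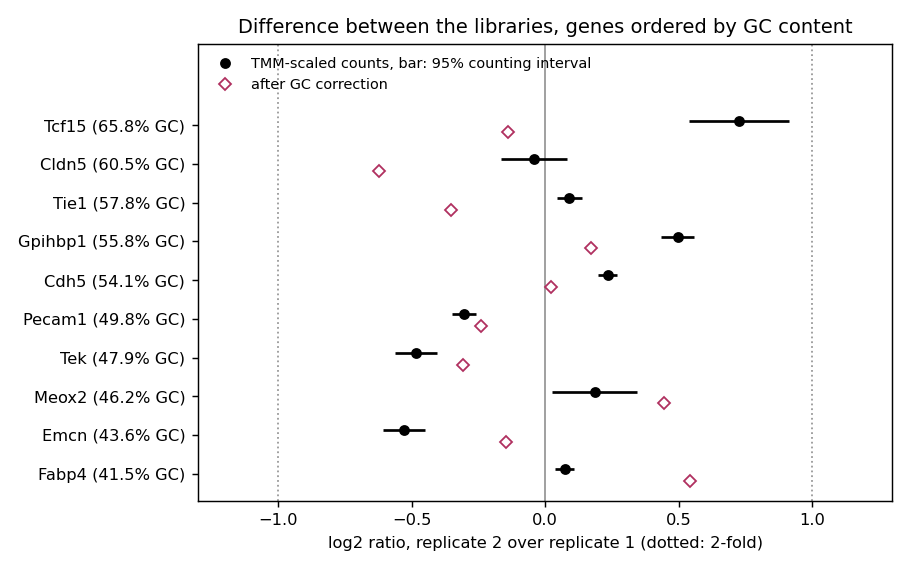
Log2 ratio of replicate 2 over replicate 1 for the 10 genes, ordered by GC content (%), as TMM-scaled counts with 95% counting intervals (filled) and after the GC correction (open); dotted lines mark 2-fold. All filled and open points lie within the dotted lines, and the open points of Tcf15, Cldn5 and Tie1 lie to the left of the filled ones.

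TPM gives another picture of the sum, because it depends on the mitochondrial share. As deposited, 7 of the 10 genes were higher in replicate 2 and the sum was 1.20-fold higher there. With TPM rescaled after leaving out the genes of the mitochondrial genome, their nuclear copies and the globins, which took 63.7% and 54.5% of TPM, the sum was 1322 TPM in replicate 1 and 1266 TPM in replicate 2. It was then 1.04-fold higher in replicate 1, with 4 genes higher and 6 lower in replicate 2. No direction of the sum therefore holds under both scales.

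Other endothelial genes, a list of 23, had a median size of the log2 ratio of 0.29. That size was 0.27 over the 10 genes and 0.39 over all genes tested. The widest ratio of the list was that of Sox18, 0.93, against 0.73 for Tcf15 among the 10. The list of 23 was tested in full and 0 were called, beside 11.8% of all genes tested. The median log2 ratio of the list was 0.02, beside -0.01 over all genes tested. Its most abundant genes were Ly6c1, Egfl7, Eng and Cd34: Egfl7, a secreted protein of endothelium, was at 213.64 and 262.4 TPM, and Eng, a co-receptor for TGF-beta, at 80.41 and 126.6 TPM. None of the markers of vessel subtypes was called either, over 8 capillary, 9 arterial, 5 venous, 7 lymphatic and 4 endocardial genes. With the GC correction 1 of these, the endocardial gene Hapln1 (22 and 49 counts), was called higher in replicate 2, at 1.31 on the log2 scale. Of the capillary genes, Aqp1, a water channel, was at 222.99 and 229.61 TPM and Cd300lg at 49.79 and 54.1 TPM. In scaled counts both were slightly lower in replicate 2, at -0.13 and -0.09 on the log2 scale. Of the 8 capillary genes 7 lay below 0 and 1 above, with a median log2 ratio of -0.21. Over all 16145 genes tested, 8265 lay below 0 and 7880 above. The capillary gene above 0 was Rgcc, at 32.09 and 65.67 TPM, whose log2 ratio of 0.87 was the widest of that list. The arterial genes Dll4, Efnb2, Gja5 and Gja4 had means from 11.7 to 12.2 TPM, near Cldn5 and Tek. Of the venous genes Aplnr was at 26.59 and 18.71 TPM, and Ackr1 at 0.49 and 0.93.

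Some of the 10 genes are also known from other cells, so markers of those cells stand beside them. Fabp4 is abundant in fat cells, and the 8 adipocyte markers summed to 121.9 and 462.1 TPM. Of these 6 were called higher in replicate 2, led by Cfd, a protease secreted by fat, at 21.56 and 199.21 TPM, and with Ucp1, Cidec, Adipoq, Plin1 and Retn. The scaled count of Fabp4 itself differed by 1.05-fold, and by 0.54 on the log2 scale after the GC correction. Pecam1 is found on platelets, and 5 of 6 platelet markers (Ppbp, Gp9, Itga2b, Gp1bb and Gp1ba) were called higher in replicate 2, while Pecam1 was lower there. With the GC correction 4 of the 6 were called, since Itga2b moved from 1.33 to 0.89 on the log2 scale. All 9 lung markers (Scgb1a1, Scgb3a1, Scgb3a2, Bpifa1, Foxj1, Sftpa1, Sftpb, Sftpc and Sftpd) were called higher in replicate 2, as were all 6 red cell markers (Hba-a1, Hba-a2, Hbb-bs, Hbb-bt, Alas2 and Slc4a1). Scgb1a1, a secretoglobin of airway club cells, was at 0.18 and 1566.7 TPM, and endothelium of lung is also known to express Cdh5, Pecam1 and Cldn5. The part of fat, platelets and lung in the levels of the 10 genes was not tested.

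Of the 7 macrophage markers Cd68 alone was called, higher in replicate 2 (2.44 and 7.86 TPM). Of the 6 fibroblast markers Lum alone was called, lower in replicate 2 (56.72 and 25.15 TPM). Its log2 ratio moved from -1.35 to -0.90 with the GC correction, under which it was no longer called. No gene of the 8 mural and 8 cardiomyocyte markers was called, beside 11.8% of all genes tested. The cardiomyocyte markers, headed by Actc1, were all detected and summed to 28580 and 33180 TPM, so the labelled tissue was present in both libraries.

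**Figure D5:**
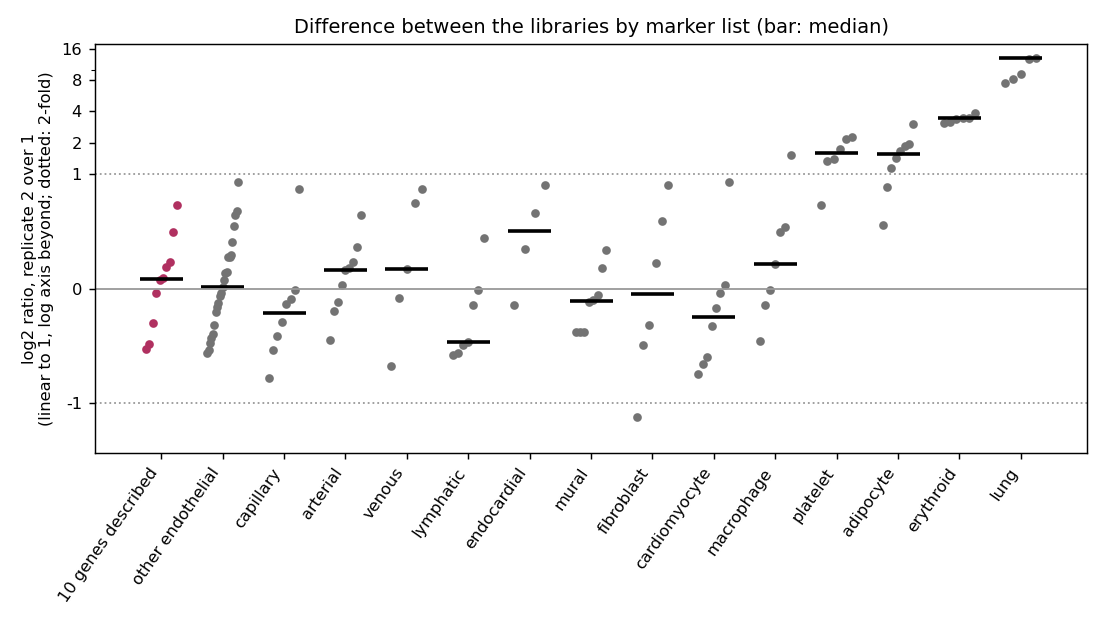
Log2 ratio of replicate 2 over replicate 1 (linear to 1, log axis beyond) for tested genes of each marker list, with the median over all of them as a bar; genes with no counts in a library have no point but enter the median. The 10 endothelial genes and the other endothelial genes lie within 2-fold (dotted), while every red cell and lung gene lies above it.

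Promoter windows of 250 bases before the start site, from the RefSeq table on GRCm38.p6, matched 5 of the 10 genes: Emcn, Tek, Tie1, Meox2 and Cldn5. The letters AGGAAG, a form bound by the ETS factors of endothelium, read on both strands, were in 2 of the 5 windows (Emcn and Tie1), beside 29.5% of 32851 windows. The RefSeq start of both genes lies inside the span that GENCODE M21 gives the gene, so their windows reach into it, that of Tie1 for most of its length. The GATA letters AGATAA on both strands were in 0 of the 5, beside 9.99%.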

How the data were processed

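Poly(A)-selected RNA of whole heart was measured in 2 libraries of 1 group, grouped by the labels. The authors deposited gene and transcript tables on mm10 with GENCODE M4, per the notes beside the tables. An aligner and quantification program not given in the sources used here made these tables. The authors deposited expected counts, estimated fragments that need not be whole, per the file headers. Deposited TPM values, with a posterior mean, and deposited FPKM values are scaled by effective length, per the file headers. The deposited isoform percent in the transcript tables was recomputed from TPM. Posterior SD and lengths are other deposited columns.

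Of 43346 genes, 42462 (98.0%) matched GENCODE M21, the source of symbols, GRCm38 coordinates, transcript sequences and GC content. None of the matched genes overlaps any of the 10. Spike-ins and other entries, at most 1.72% of counts, stayed out of the tests. Contig and junction lists on mm9 were not used here, and the values of 1 listed marker are not reported here. Promoter windows came from RefSeq.

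Expected counts were rounded before testing. Scaling by TMM (factors 0.957 and 1.04) and a common dispersion (square root 0.275) used edgeR 4.0.16 under R 4.3.3, and DESeq2 1.42.0 gave other size factors. The exact binomial test took 2 times the smaller tail, with Clopper-Pearson intervals at 95%, which cover counting error only. The GC correction subtracted a lowess fit with a span of 0.3. Exon shares were computed over the coding transcripts that span the exon. The tests were tried on simulated counts that held counting error only, so the simulation cannot give error rates for the real libraries. Python 3.11.15, scipy 1.17.1 and statsmodels 0.14.6 were used. Alternatives were other scalings, filters, units and tests, and each library alone. The labels name biological replicates under 1 donor record, so p-values measure only the difference between these samples, which may be partly technical.

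The 10 genes, the 23 lists and the 14 pairs were chosen with earlier results of these data known. Named were all 10 genes and, of each other list, up to 4 genes of highest mean TPM, every gene called and both genes of each pair. Angpt4, Tcf3, Fabp1, Fabp2, Ackr1, Cdh6, Hapln1 and Sox18 were named after their values were seen.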

Additional observations from a re-analysis of the deposited data

How the results depend on the processing

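No gene of the 10 was called under any of the 6 alternative scalings, filters, units and tests that kept the fold limit. With no fold limit 9 of the 10 and 10941 genes in all passed. With edgeR's exact test and the common dispersion 410 genes in all were called (337 higher, 73 lower in replicate 2), against 1901 (1325 and 576), and with total gene counts the split was 1602 and 415. The sum over the 10 genes was 1294 TPM after rescaling without mitochondrial genes, their copies and globins, against 518, since 55 genes with 54.5% or more of TPM were left out, and from 471.8 to 565.1 in single libraries. Some log2 ratios between the libraries changed sign: Cldn5 was 0.085 with total gene counts, Tie1 -0.35 and Tcf15 -0.14 with the GC correction, and Fabp4 -0.0029 as a ratio of TPM shifted to the median of the TMM-scaled ratios (0.19 unshifted). Total gene counts shift the ratio of every gene by the same amount, that of Cldn5 included. The median over tested genes with counts in both libraries moved from -0.017 to 0.109. For Fabp4 the cause was not tested. Within a library, Fabp4 over Cd36 was -1.48 and Meox2 over Tcf15 0.40 by counts, which are not divided by length. In single libraries the log2 ratio ran from -0.507 to 0.047 for Cdh5 over Cdh2, from -1.22 to 0.034 for Gpihbp1 over Cd36, from -0.021 to 0.525 for Cdh5 over Pecam1 and from -0.326 to 0.497 for Meox2 over Meox1. The order of the 10 genes held in 7 to 9 of 9 steps in single libraries and in 8 after rescaling. The first gene of a pair was the higher in 5 to 9 of 14 pairs in single libraries. No paired analysis was possible because there is 1 group. At this depth 3 counts stand for 0.0555 and 0.0464 CPM.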
